A study of Mus musculus with 2 samples.

Results

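The 10 transcription factors described here help set the fate of T, NK and innate lymphoid cells, and were followed through tumour-infiltrating lymphocytes: Tcf7, Lef1, Satb1, Bach2, Tox, Id2, Id3, Tbx21, Eomes and Prdm1. They were taken by symbol as a fixed list, 10 of the 32285 genes in the tables, and all 10 had UMIs (unique molecular identifiers, each counting 1 captured transcript) in both libraries. The cells were live CD45+ leukocytes sorted from liver tumours of C57BL/6 mice. These mice ate an MCD diet, and luciferase-labelled RIL-175 cells, a mouse hepatocellular carcinoma line, were implanted in their livers. The AKK group was fed 5000000000 colony-forming units of Akkermansia muciniphila, a gut bacterium, and the control group received PBS by mouth. Feeding began 2 weeks before the diet, the diet began 2 weeks before the implant, and feeding paused for 6 days after surgery. Each group is 1 droplet library. Differences between AKK and PBS are therefore differences between 1 pair of libraries with no replicate check, and every interval covers counting error only. The labels do not say how many mice a library holds or how old they were.

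Naive and stem-like T cells keep a program headed by the HMG-box proteins TCF-1 (from Tcf7) and LEF-1, together with the chromatin organiser SATB1 and the repressor BACH2, and this program gives way as cells become effectors. Effector programs run through the T-box factors T-bet (from Tbx21) and EOMES and the repressor BLIMP-1 (from Prdm1). ID2 and ID3 lack a DNA-binding region and hold E proteins inactive, with ID3 tied to memory precursors and ID2 to effector and innate lymphoid cells. TOX sustains chronically stimulated T cells and is needed for the development of innate lymphoid cells.

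On GRCm38 with the GENCODE M21 annotation, Tcf7 (ENSMUSG00000000782) lies at chr11:52252371-52283014, Lef1 (ENSMUSG00000027985) at chr3:131110471-131224356 and Satb1 (ENSMUSG00000023927) at chr17:51736187-51833290. Bach2 (ENSMUSG00000040270) lies at chr4:32238804-32586108, Tox (ENSMUSG00000041272) at chr4:6686353-6991557 and Id3 (ENSMUSG00000007872) at chr4:136143497-136145755. Id2 (ENSMUSG00000020644) lies at chr12:25093799-25097140 and Tbx21 (ENSMUSG00000001444) at chr11:97098071-97115331. Eomes (ENSMUSG00000032446) lies at chr9:118478212-118486132 and Prdm1 (ENSMUSG00000038151) at chr10:44437177-44528501. The genes differ widely in how much of them is exon: 2.49% of Tox and 2.86% of Bach2 against 73.0% of Id2 and 79.3% of Id3. No source here says whether intronic reads were counted, so the levels below are compared between cell classes for 1 gene and not between genes.

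The upstream sequences of Eomes, Tbx21 and Lef1 are printed as 3 examples, and the windows of the other factors are not printed. RefSeq windows were found for 9 of the 10 factors. Each one shown is the 250 bases before the first listed start site on GRCm38.p6, read 5′ to 3′ on the gene's strand. Capitals mark the core CTTTG that TCF-1 and LEF-1 recognise and the T-box half-site GGTGTG, on either strand (read as CAAAG and CACACC on the other). The Eomes window is chr9:118477939-118478188 on the plus strand, the Tbx21 window chr11:97115332-97115581 on the minus strand and the Lef1 window chr3:131110047-131110296 on the plus strand.
Eomes: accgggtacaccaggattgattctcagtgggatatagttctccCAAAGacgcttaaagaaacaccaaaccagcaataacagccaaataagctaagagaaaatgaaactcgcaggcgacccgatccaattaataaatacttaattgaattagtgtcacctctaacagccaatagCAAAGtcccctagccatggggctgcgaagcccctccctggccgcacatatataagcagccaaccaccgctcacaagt
Tbx21: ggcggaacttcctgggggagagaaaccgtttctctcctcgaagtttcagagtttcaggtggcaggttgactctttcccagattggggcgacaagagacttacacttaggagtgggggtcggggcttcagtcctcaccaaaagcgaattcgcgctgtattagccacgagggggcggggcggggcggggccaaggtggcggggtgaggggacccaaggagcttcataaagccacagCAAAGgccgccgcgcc
Lef1: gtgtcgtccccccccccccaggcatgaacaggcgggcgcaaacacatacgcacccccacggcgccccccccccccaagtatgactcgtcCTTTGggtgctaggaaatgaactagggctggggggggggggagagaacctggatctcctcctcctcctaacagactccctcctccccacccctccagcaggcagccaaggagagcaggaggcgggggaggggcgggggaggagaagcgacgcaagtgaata
The Eomes window held 2 CTTTG cores, and the Tbx21 and Lef1 windows held 1 each. None of these 3 windows held GGTGTG. Of the other factors, the windows of Tcf7 (sites 1 and 2), Id2, Id3 and Satb1 (sites 1, 2 and 3) held 0 CTTTG cores. Those of Bach2 and Prdm1 held 1 each, as did Satb1 sites 4 and 5, which overlap and share it. GGTGTG occurred once in the windows of Tcf7 site 2, Satb1 sites 1 and 3, Bach2 and Id3. Lef1 has further start sites whose windows are not printed. Those of sites 2, 3 and 4 held 2, 1 and 3 CTTTG cores, and that of site 3 held 1 GGTGTG. The site 2 window overlaps the printed one and includes the same CTTTG core. The E-box CANNTG is the kind of site bound by the E proteins that ID2 and ID3 sequester. It occurred once in the Tbx21 window and once in the printed Lef1 window and is not capitalised. Of 32851 windows of this length, 48.6% held CTTTG, 66.2% held CANNTG and 16.3% held GGTGTG, so these matches are common and describe letters, not binding.

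Of 5088 PBS and 6610 AKK barcodes, 4626 and 6167 cells were kept. Clusters carrying T, NK and ILC markers held 758 PBS and 1508 AKK cells, with 7773147 and 14333009 UMIs in all. The libraries shared 8 barcodes, 1 of them among these lymphocytes. The lymphocytes were clustered again without the 10 factors and named from markers. The compared classes were naive-like T cells (53 PBS and 174 AKK cells), CD8 T-like (166 and 316), CD4 T-like (50 and 134), regulatory T-like (70 and 115), NK-like (159 and 388) and ILC1-like cells (122 and 144). Their median UMIs per cell lay between 6938 and 11463. Defining markers were present: Cd8a in 83.1% of PBS and 91.1% of AKK CD8 T-like cells, Foxp3 in 80.0% and 85.2% of regulatory T-like cells, Itga2 in 74.8% and 75.5% of NK-like cells and Itga1 in 66.4% and 69.4% of ILC1-like cells. Conversely, Itga1 was found in 21.4% and 12.4% of NK-like cells and Itga2 in 18.9% and 22.9% of ILC1-like cells. Smaller groups were NKT-like cells (26 and 61), gamma-delta T-like cells of the IL-17 type (25 and 100), cycling cells (8 and 25) and a cluster led by Dlg2 and Gpm6b that mixed CD4 and CD8 cells (79 and 51). Levels are CPM, the UMIs of a gene per 1000000 UMIs of all genes, summed over the cells of a class. Shares of cells are those expected when each cell is thinned to 4260 UMIs, which leaves out 77 PBS and 150 AKK lymphocytes below that depth. Neutrophil-like cells (2238 and 2576, median UMIs 4780 and 4155) serve as the level of free RNA where neutrophils lack a gene. Their thinned shares rest on the deeper 1397 PBS and 1208 AKK cells.

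**Figure D1:**
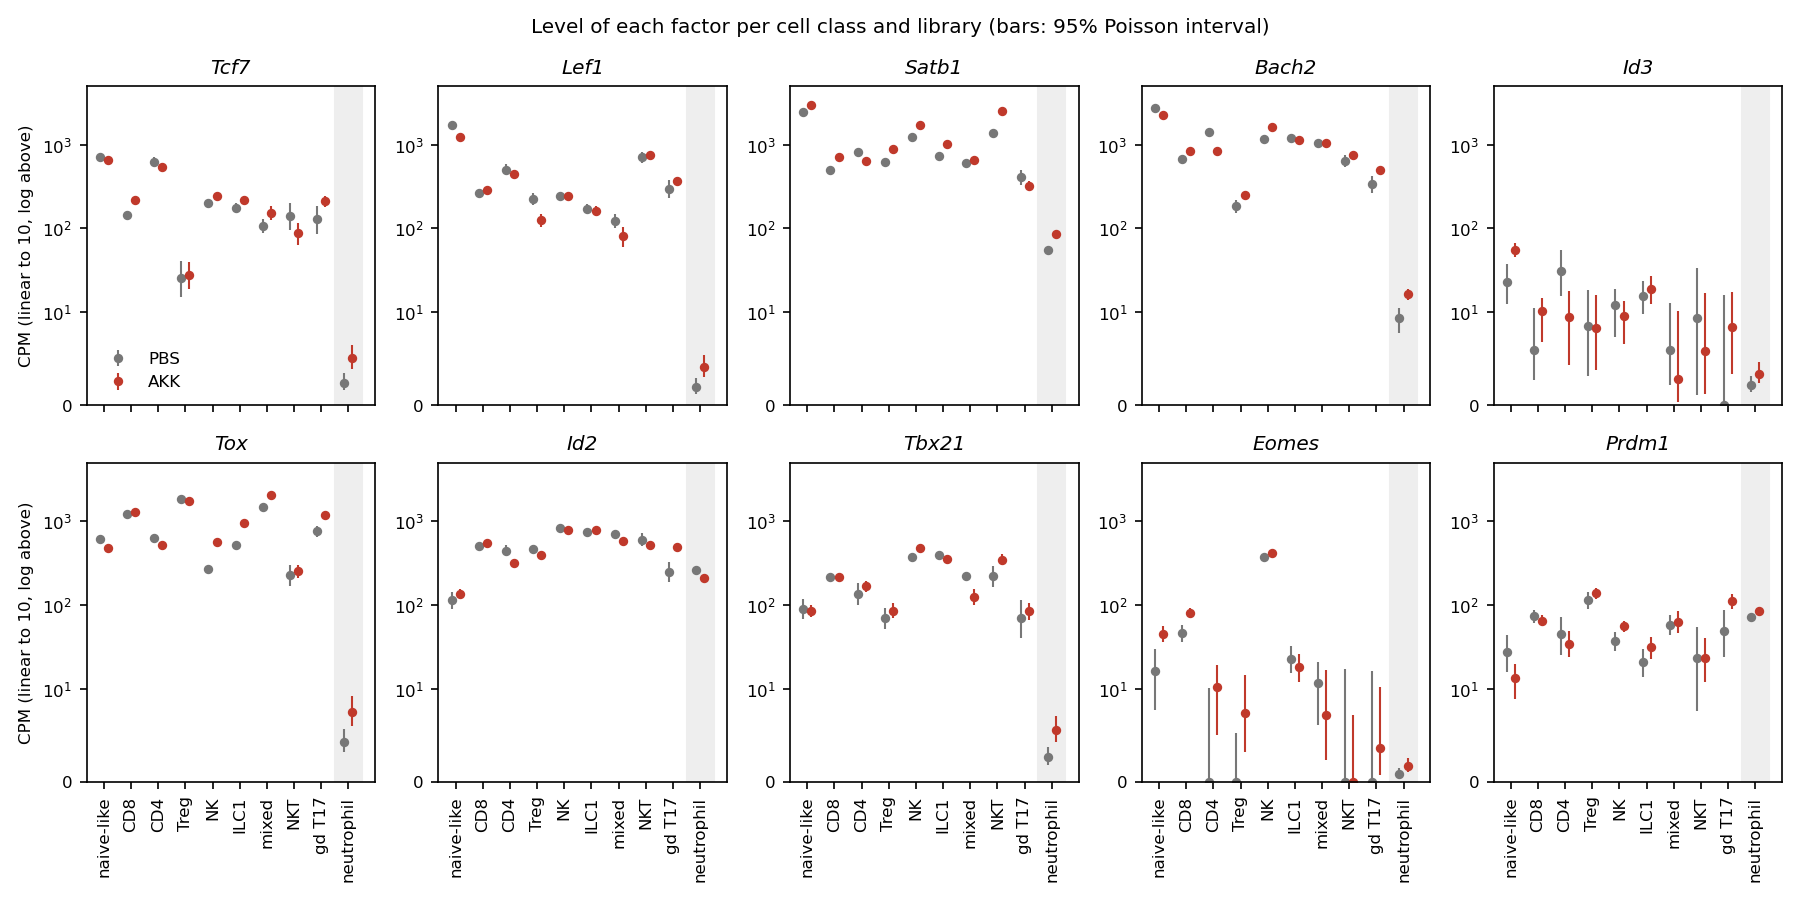
Level of each factor in CPM (vertical axis, linear up to 10 and logarithmic above) in 9 lymphocyte classes and in neutrophil-like cells (grey band), with grey points for the PBS and red points for the AKK library and bars for 95% Poisson intervals. Tcf7 runs from about 25 CPM in regulatory T-like cells to over 600 in naive-like cells, and Eomes is highest in the NK column, at 374 and 421 CPM.

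Tcf7 set naive-like and CD4 T-like cells apart from regulatory T-like cells. Its level was 720 CPM in PBS and 659 CPM in AKK naive-like cells and 619 and 538 CPM in CD4 T-like cells. Regulatory T-like cells stood at the other end with 25.6 CPM (95% interval 15.2 to 40.4) and 27.7 CPM (18.7 to 39.6). NK-like cells (198 and 241 CPM), ILC1-like cells (177 and 218 CPM) and CD8 T-like cells (143 and 218 CPM) lay between these ends, and in AKK the intervals of these 3 classes overlapped. Thinned to 1 depth, 91.2% of PBS and 89.7% of AKK naive-like cells held a Tcf7 UMI, against 4.65% and 7.75% of regulatory T-like cells and 0.934% and 2.03% of neutrophil-like cells. Without thinning, the shares were 100% and 97.7% of naive-like, 7.14% and 11.3% of regulatory T-like and 1.30% and 2.33% of neutrophil-like cells. Few regulatory T-like cells carried the gene, and 1 cell held 9 of the 18 PBS and 1 cell 9 of the 30 AKK UMIs.

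Lef1, the partner of Tcf7, had another order. Naive-like cells led with 1705 CPM in PBS and 1224 CPM in AKK, and NKT-like cells came next with 704 and 743 CPM. NKT-like cells thus held a high Lef1 level beside a modest Tcf7 level of 141 and 87.8 CPM. CD4 T-like cells held 501 and 449 CPM. NK-like cells held 244 and 243 CPM and CD8 T-like cells 266 and 289 CPM, with overlapping intervals in PBS. Regulatory T-like cells held 224 CPM in PBS and 125 CPM in AKK.

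Satb1 and Bach2 were detected in most lymphocytes and in B-like cells as well. Satb1 stood at 2455 and 2991 CPM in naive-like cells, at 1237 and 1701 CPM in NK-like cells and at 501 and 714 CPM in CD8 T-like cells. B-like cells held 1732 and 1899 CPM of Satb1, and 16.7% and 23.4% of neutrophil-like cells held a UMI of it. Free RNA and low Satb1 expression cannot be told apart at such levels. Bach2, known to restrain effector differentiation, stood at 2707 and 2247 CPM in naive-like cells and at 183 and 251 CPM in regulatory T-like cells, its lowest class of the 6. Its neutrophil level was 9.42 and 16.3 CPM, below every lymphocyte class.

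Id3 was scarce and Id2 abundant. Id3 reached 22.6 CPM in PBS and 55.6 CPM in AKK naive-like cells, from 14 and 106 UMIs, and lay at 5.94 to 30.8 CPM in the other 5 classes. Neutrophil-like cells held 2.17 and 3.38 CPM and macrophage-like cells 45.5 and 48.9 CPM. Id2 was lowest in naive-like cells (115 and 137 CPM) and highest in NK-like (828 and 785 CPM) and ILC1-like cells (739 and 796 CPM). In AKK the intervals of NK-like cells (756 to 815) and ILC1-like cells (753 to 842) overlapped. Id2 was not restricted to lymphocytes: 45.8% of PBS and 38.8% of AKK neutrophil-like cells held a UMI of it.

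Of the T-box pair, Eomes divided NK-like from ILC1-like cells, while Tbx21 was found in most cells of each. The share of cells with Tbx21 was 71.6% of PBS and 74.9% of AKK NK-like cells and 67.9% and 68.4% of ILC1-like cells. Tbx21 stood at 372 and 479 CPM in NK-like and at 392.4 and 354 CPM in ILC1-like cells. In PBS their intervals (342 to 403 and 360 to 427) overlapped, and in AKK they did not (456 to 503 and 325 to 385). Eomes, by contrast, stood at 374 and 421 CPM in NK-like cells but at 22.8 and 18.2 CPM in ILC1-like cells. The share of cells with an Eomes UMI was 71.0% and 74.4% of NK-like cells against 7.84% and 5.39% of ILC1-like cells, with 0.387% and 0.702% in neutrophil-like cells. Without thinning, the shares were 84.3% and 83.0% against 12.3% and 9.72%. EOMES is the textbook factor that separates NK cells from ILC1, and it was left out of the clustering of the lymphocytes and of the markers that name them. Of the 6 compared classes, CD8 T-like cells held the next Eomes level with 46.2 and 81.1 CPM. Cycling cells held 60.4 CPM in PBS, from 10 UMIs in 1 cell, and 46.4 CPM in AKK. No Eomes UMI was found in 26 PBS or 61 AKK NKT-like cells, which allows up to 14.1 and 5.85 CPM when 3 UMIs over the class are taken as the limit of a count of 0. PBS CD4 T-like and regulatory T-like cells also held none, which allows up to 8.40 and 4.26 CPM by the same limit.

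Prdm1 was highest in regulatory T-like cells among the 6 classes, at 114 and 138 CPM. CD8 T-like cells followed with 73.3 and 65.1 CPM, and naive-like cells were lowest in AKK at 13.6 CPM. Plasma-like cells, where BLIMP-1 drives antibody secretion, held 261 and 242 CPM. Neutrophil-like cells held 71.7 and 84.5 CPM, with a UMI in 17.1% and 18.6% of cells, which is above the share in ILC1-like cells (9.35% and 12.7%). In the lower classes, Prdm1 of the cells themselves and free RNA cannot be told apart.

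Tox followed no stem-to-effector order. Regulatory T-like cells led with 1842 and 1753 CPM, and the cluster mixing CD4 and CD8 cells held 1491 and 2069 CPM. CD8 T-like cells held 1207 and 1294 CPM. NK-like cells were lowest of the 6 in PBS at 267 CPM and stood at 567 CPM in AKK, while ILC1-like cells held 525 and 954 CPM. Neutrophil-like cells held 4.33 and 7.51 CPM.

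Within the CD8 T-like class, a Gzmk-led cluster (80 PBS and 197 AKK cells) and a cluster led by Havcr2 and Lag3 (86 and 119 cells) differed in most of the factors. Havcr2 encodes the inhibitory receptor TIM-3. Tcf7 stood at 273 and 354 CPM in the Gzmk-led cluster and at 35.98 and 40.4 CPM in the Havcr2-led cluster, in 57.8% and 59.6% against 7.39% and 12.95% of cells. Lef1 followed Tcf7 with 456 and 415 against 112 and 124 CPM. Tox went the other way with 532 and 774 against 1758 and 1978 CPM, and so did Id2 with 279 and 389 against 693 and 751 CPM. Tbx21 differed little between them, at 234 and 226 against 206 and 205 CPM. Satb1 was also alike, at 498 and 708 against 503 and 722 CPM. Eomes was higher beside Tcf7, at 66.1 and 101 against 29.98 and 54.7 CPM, and Prdm1 was higher beside Havcr2, at 49.97 and 54.5 against 92.3 and 79.2 CPM.

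The NK-like class was uneven in the same factors. Tcf7 was found in 50.5% of PBS and 61.1% of AKK cells of the Angpt1-led cluster (73 and 263 cells) and in 55.2% and 71.0% of the Gzmc-led cluster (45 and 32 cells). The cluster led by Gzma and Itgam (41 and 93 cells) held Tcf7 in 16.0% and 15.3% of cells. Itgam encodes CD11b, which marks mature NK cells. In the same cluster Tbx21 was found in 85.5% and 88.5% of cells, against 74.7% and 73.0% of the Angpt1-led cluster. Eomes was found in 82.8% and 76.6% against 72.3% and 76.4%, with overlapping intervals in both libraries. In the Gzmc-led cluster, Tbx21 was found in 54.0% and 52.1% of cells and Eomes in 58.1% and 54.0%. That cluster took the NK-like name from its marker score, with Klra4, Klra8 and Ncr1 among its leading genes. It held markers of both classes, Itga2 in 53.3% and 50% and Itga1 in 48.9% and 50% of cells, and Gzmc also led the ILC1-like cluster. Naive-like cells split in a Dapl1-led cluster (38 and 94 cells) with Tbx21 in 9.30% and 9.496% of cells and a Klra7-led cluster (15 and 80 cells) with Tbx21 in 58.2% and 35.7%. Tcf7 was found in 94.1% and 94.5% of the first and 84.7% and 83.9% of the second. The Klra7-led cluster took the naive-like name from its marker score, but Ccr7 was found in 26.7% and 38.8% of its cells, against 89.5% and 89.4% of the Dapl1-led cluster, and the Ly49 genes Klra7 and Klra1 stand with Ccr7 among its 10 leading genes. Without it, naive-like Tcf7 stood at 837 and 793 CPM and Lef1 at 2042 and 1479 CPM.

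**Figure D2:**
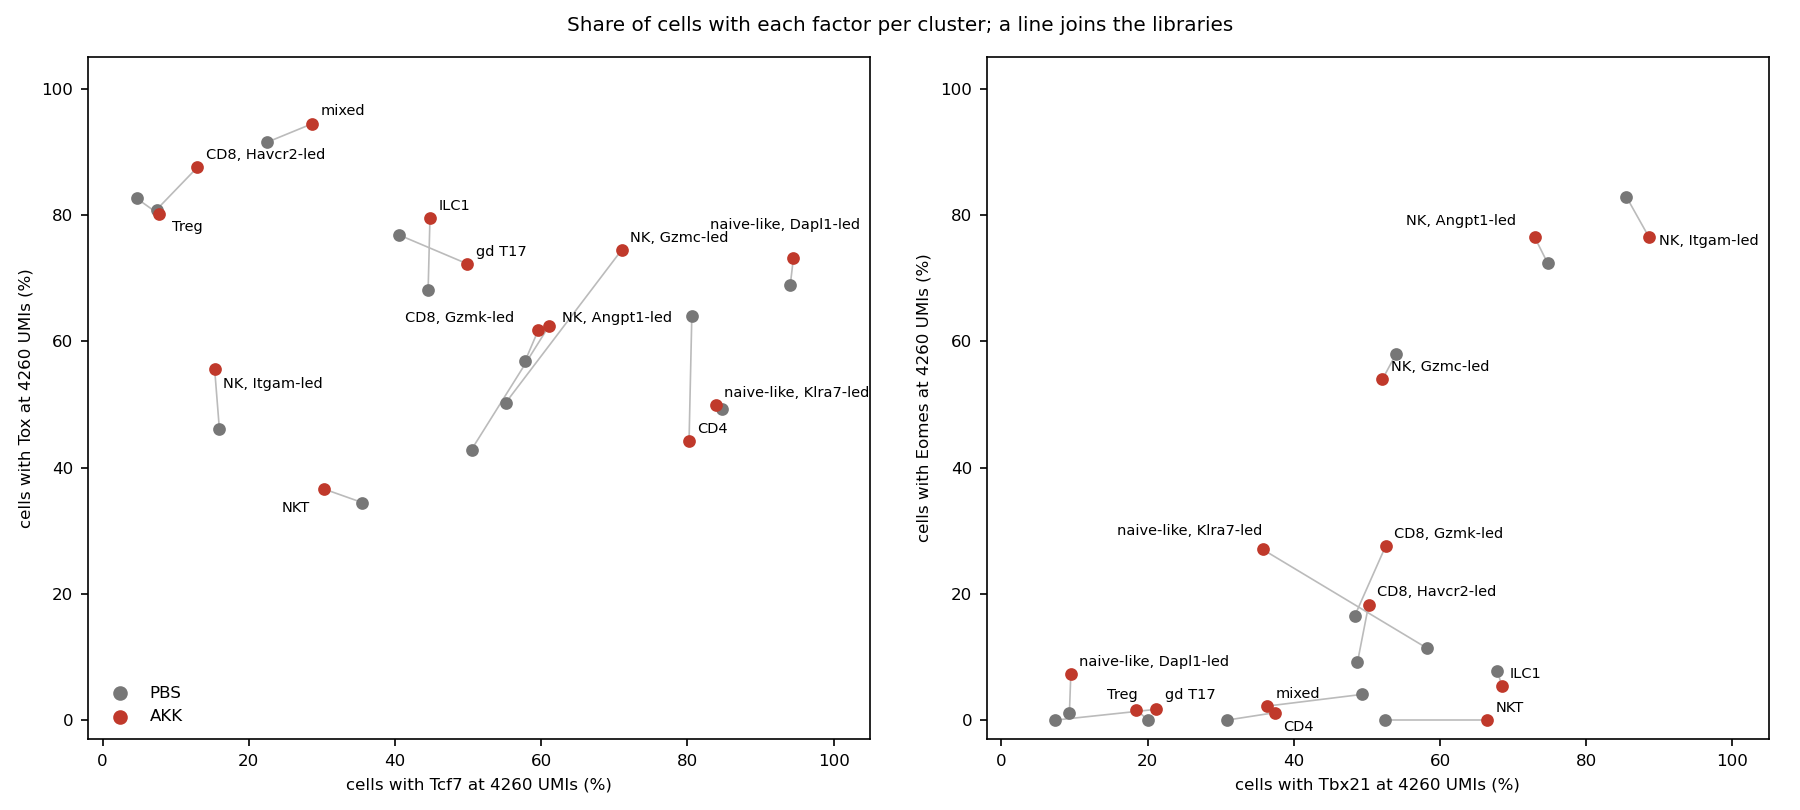
Share of cells with Tox against Tcf7 (left) and with Eomes against Tbx21 (right), in percent of cells thinned to 4260 UMIs, for each lymphocyte cluster except the cycling cells, with grey points for PBS, red for AKK and a line joining the libraries. The Gzmk-led and Havcr2-led CD8 clusters lie at 57.8% and 7.39% Tcf7 in PBS. The Angpt1-led and Itgam-led NK clusters hold the upper right of the T-box plot, and the Gzmc-led NK cluster lies nearer its middle.

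The AKK and PBS libraries were then set side by side in the 6 classes, asking whether feeding the bacterium went with another balance of the factors. A factor was called where its CPM differed by at least 1.5-fold with at least 30 UMIs over both libraries. Of 56 factor and class combinations with enough UMIs, 8 were called higher and 3 lower in AKK. In CD8 T-like cells 3 of 10 factors were called higher and 0 lower, against 6.31% and 7.44% of 8827 genes. In NK-like cells 1 of 10 was higher and 0 lower, against 8.95% and 9.06% of 8983 genes, and in ILC1-like cells 2 of 10 and 0, against 8.49% and 7.06% of 8091. In naive-like cells 2 of 10 were higher and 1 lower, against 13.1% and 8.02% of 7255 genes. CD4 T-like and regulatory T-like cells each had 0 of 8 higher and 1 of 8 lower, against 14% and 10.3% of 5634 genes and 10.3% and 9.54% of 6758 genes. With 8 to 10 factors a class, 1 call is near the background. The median log2 ratio of the measured factors was 0.22 in CD8 T-like, 0.32 in NK-like, 0.19 in ILC1-like, 0.20 in regulatory T-like, -0.10 in naive-like and -0.31 in CD4 T-like cells, beside medians of 0.01 to 0.06 over all genes.

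**Figure D3:**
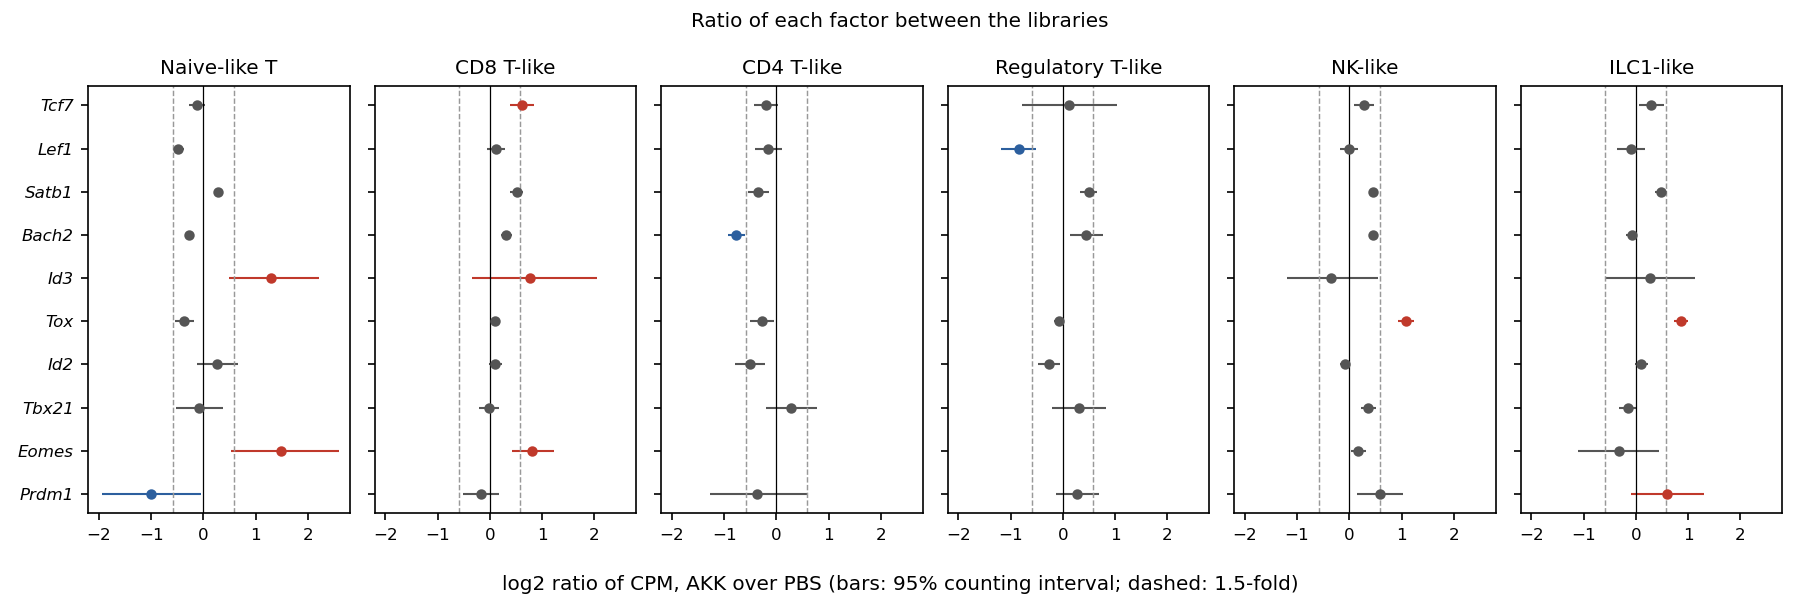
Log2 ratio of CPM, AKK over PBS (horizontal axis), of each factor in the 6 compared classes, with bars for 95% counting intervals, dashed lines at 1.5-fold, red for factors called higher, blue for factors called lower and dark grey for the rest. Tox in NK-like cells lies at a ratio of 2.13 and Bach2 in CD4 T-like cells at 0.586, while most points lie between the dashed lines.

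In CD8 T-like cells, Tcf7 stood at 143 CPM in PBS and 218 CPM in AKK, a ratio of 1.53 (95% interval 1.31 to 1.80). The share of cells with Tcf7 was 32.05% and 40.9%, 8.86 points apart, with an interval that includes 0 (-0.965 to 18.1). Weighting each cell alike gave a log2 ratio of 0.47, which ends the call. Within the Gzmk-led cluster the ratio was 1.29 (1.09 to 1.54) and within the Havcr2-led cluster 1.12 (0.698 to 1.84), so the class ratio was larger than that within either cluster. The Gzmk-led cluster, rich in Tcf7, held 197 of 316 AKK cells and 80 of 166 PBS cells. Eomes in the same class stood at 46.2 and 81.1 CPM, a ratio of 1.76 (1.34 to 2.33). It was higher in both clusters, with ratios of 1.53 and 1.83, and its log2 ratio stayed between 0.80 and 0.99 under each alternative run on the whole class. The share of CD8 T-like cells with Eomes was 12.8% in PBS and 23.8% in AKK, 11.1 points apart (3.09 to 18.0), and without thinning 19.3% and 32.6%. Id3 had a ratio of 1.71 from 9 and 28 UMIs, with an interval of 0.786 to 4.13. Tbx21 did not follow Eomes, with a ratio of 0.990 (0.864 to 1.14), and Prdm1 had 0.889 (0.697 to 1.14).

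By CPM ratio, Tox differed most in the innate classes. In NK-like cells it stood at 267 CPM in PBS and 567 CPM in AKK, a ratio of 2.13 (1.91 to 2.37). A single AKK cell of the Gzmc-led cluster held 220 of the 1946 UMIs (11.3%). Without the highest cell of each library the log2 ratio was 0.99, and without the whole Gzmc-led cluster it was 0.84, against 1.09 with all cells. Tox was found in 45.9% of PBS and 61.8% of AKK NK-like cells, 15.9 points apart (6.30 to 25.3), and without thinning in 56.0% and 68.0%. In ILC1-like cells Tox stood at 525 and 954 CPM, a ratio of 1.82 (1.66 to 1.99), in 68.2% and 79.5% of cells. Choosing ILC1-like cells by marker gates (63 PBS and 65 AKK cells) gave a log2 ratio of 0.38, below the call. In CD8 T-like and regulatory T-like cells, where Tox was high, its ratios were 1.07 and 0.952. In CD4 T-like cells Tox was found in fewer AKK than PBS cells, 44.1% against 64.0%, with a CPM ratio of 0.827. This difference of -19.9 points (-35.8 to -1.74) was the largest of the 6 classes by share of cells, and opposite in direction to the innate classes.

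Other calls rested on few cells or moved with the way classes were drawn. In naive-like cells Eomes stood at 16.1 and 45.1 CPM (10 and 86 UMIs), a ratio of 2.79 (1.45 to 6.03), and Id3 had a ratio of 2.46 (1.40 to 4.65). The Klra7-led cluster, richer in both, was 15 of 53 PBS and 80 of 174 AKK cells. Without it the Id3 log2 ratio was 0.89, against 1.30 with it, and Eomes was left with 2 and 21 UMIs, too few for a call. Prdm1 in naive-like cells had a ratio of 0.497 (0.259 to 0.9751) from 17 and 26 UMIs, and marker gates turned its log2 ratio to 0.12. Prdm1 in ILC1-like cells had a ratio of 1.51 with an interval of 0.933 to 2.48. Just inside the threshold, Prdm1 in NK-like cells had a ratio of 1.49 (1.11 to 2.04).

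Bach2 in CD4 T-like cells was lower in AKK, at 1413 CPM in PBS and 829 CPM in AKK, a ratio of 0.586 (0.524 to 0.657). That log2 ratio was -0.77, but -0.53 with each cell weighted alike, -0.48 with finer clustering, -0.25 with doublets kept and 0.01 with marker gates, and none of these 4 reaches the call. Bach2 was found in 89.7% of PBS and 76.4% of AKK CD4 T-like cells, a difference of -13.2 points with an interval that includes 0 (-24.1 to 1.70). Lef1 in regulatory T-like cells stood at 224 and 125 CPM, a ratio of 0.556 (0.439 to 0.704), with a log2 ratio of -0.20 by marker gates. Its share of cells was 41.75% in PBS and 28.2% in AKK, a difference of -13.5 points with an interval that includes 0 (-28.5 to 1.52). Satb1 was not called anywhere, yet it was 1.22 to 1.43 times higher in AKK in 5 classes and 0.785 times in CD4 T-like cells. Its neutrophil level also differed, with 54.7 CPM in PBS and 84.6 CPM in AKK.

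Levels of markers of other cells also differed between the libraries within these classes. The 7 neutrophil markers summed to 773 to 1105 CPM over the 6 PBS classes and to 505 to 706 CPM over the AKK classes, with 6 or 7 of them detected in each. The 8 macrophage markers summed to 121 to 157 against 53.9 to 67.1 CPM, with 6 to 8 detected. The 6 plasma cell markers summed to 72.6 to 117 against 140 to 198 CPM, with 3 to 6 detected, and the 6 B cell markers to 5.60 to 14.2 against 12.99 to 23.1 CPM, with 1 to 6 detected. The 8 monocyte markers summed to 196 to 390 against 238 to 529 CPM, with 6 to 8 detected. They include Ly6c2, which is among the 10 leading genes of the Gzmk-led CD8 cluster and of the Klra7-led cluster. Their sum was 623 and 743 CPM in the Gzmk-led cluster and 200 and 187 CPM in the Havcr2-led cluster. This sum can therefore hold RNA of the lymphocytes themselves. The monocyte and B cell sums were higher in AKK in each of the 6 classes, although their ranges over classes overlapped. The 6 tumour or epithelial markers summed to 65.4 to 98.0 against 48.1 to 93.4 CPM, with 5 or 6 detected. The 4 hepatocyte markers were at 0 in PBS and at 0.364 CPM or less in AKK. The part of this RNA in the differences above was not tested.

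Many single cells held UMIs of a stem-like and an effector factor together. Tcf7 with at least 1 of Tbx21, Eomes and Prdm1 was found in 21.3% of PBS and 29.1% of AKK CD8 T-like cells, 38.1% and 46.7% of NK-like cells and 32.8% and 30.6% of ILC1-like cells. The shares were 34.3% and 34.2% of CD4 T-like, 26.6% and 31.7% of naive-like and 0.937% and 2.49% of regulatory T-like cells, with 0.111% and 0.593% in neutrophil-like cells. The naive-like share includes the Klra7-led cluster. There Tbx21 was found in 58.2% and 35.7% of cells, against 9.30% and 9.496% of the Dapl1-led cluster. In CD8 T-like cells the product of the single shares was 20.6% and 29.4%, and in NK-like cells 39.6% and 47.3%. In CD8 T-like cells the share lay near what independent detection of both would give. Most NK-like cells held at least 1 of the 3 effector factors, with Tbx21 alone in 71.6% of PBS and 74.9% of AKK cells. Their share could therefore not lie far from the product and does not bear on independence. In regulatory T-like cells the share lay below the product of 2.15% and 3.68%, from an expected 0.553 PBS and 2.52 AKK cells. The AKK share was 7.78 points above the PBS share in CD8 T-like cells (-1.20 to 15.9) and 8.60 points above in NK-like cells (-1.03 to 17.8). In all 6 classes the interval of this difference included 0.

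The single effector factors are given next, and whether they differ was not tested. No interval was computed for the ratios to the product, and the smaller shares rest on few cells. In 141 PBS and 282 AKK CD8 T-like cells, Tcf7 with Eomes was found in 4.64% and 10.9%, 1.14 and 1.12 times the product. Tcf7 with Prdm1 was found in 4.58% and 7.28%, which is 0.670 and 0.859 times the product, and Tcf7 with Id2 was 0.723 and 0.843 times. In the mixed CD4 and CD8 cluster, Tcf7 with any of Tbx21, Eomes and Prdm1 was 0.600 and 0.559 times the product. These were 8.14% of 76 PBS and 7.72% of 50 AKK cells. Tbx21 and Eomes shared 52.2% and 56.9% of NK-like cells, 1.03 and 1.02 times the product.

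**Figure D4:**
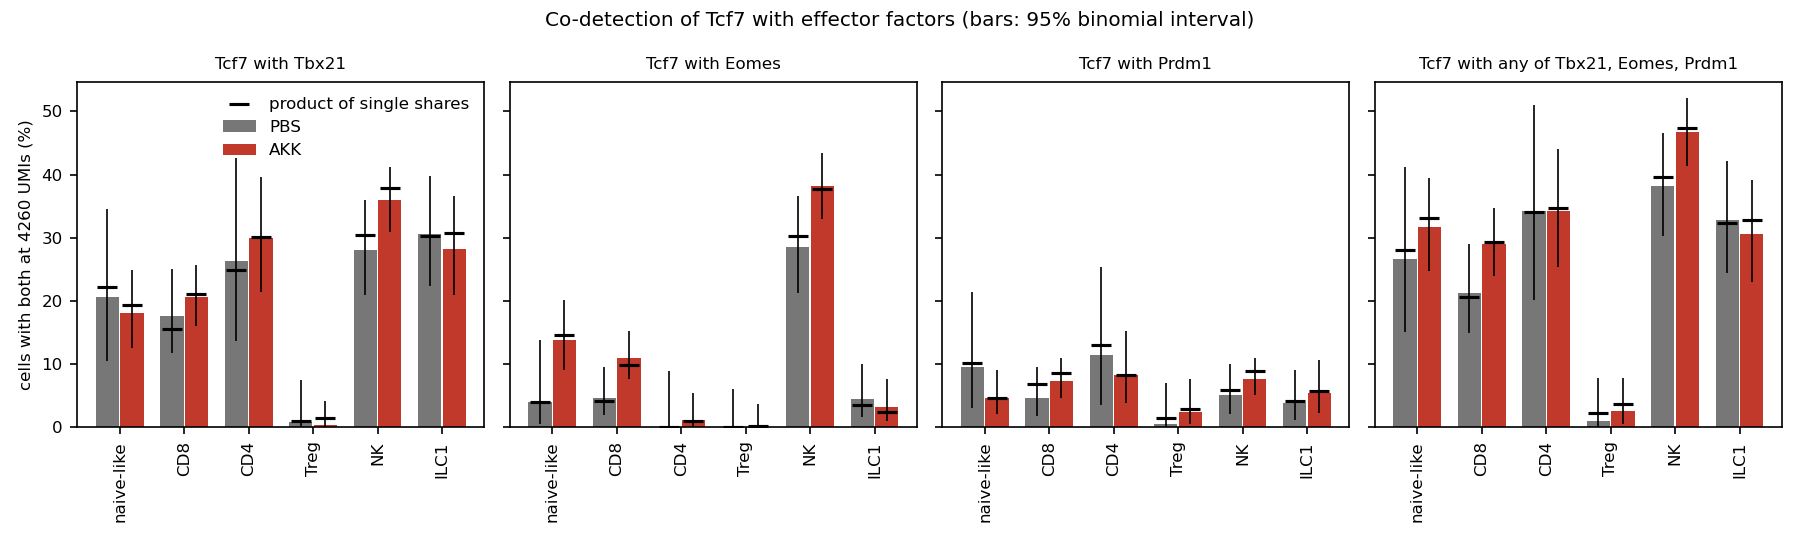
Share of cells, thinned to 4260 UMIs, with Tcf7 and an effector factor in the same cell (vertical axis, percent), for 6 classes, with grey bars for PBS, red bars for AKK, thin lines for 95% binomial intervals and black ticks for the product of the single shares. Bars and ticks lie close together, for example 21.3% against 20.6% in PBS CD8 T-like cells.

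Tcf7 and the inhibitory receptor gene Havcr2 were seldom found together. In CD8 T-like cells they shared 2.23% of PBS and 2.52% of AKK cells, 0.268 and 0.295 times the product. Havcr2 was found in 6.96% and 6.17% of cells with Tcf7 and in 34.9% and 31.1% of cells without it. Slamf6, a surface marker of stem-like exhausted cells, was found in 26.5% and 24.5% of cells with Tcf7 and in 8.48% and 8.72% of cells without it. Tcf7 and Lef1 shared 17.6% and 23.1% of CD8 T-like cells, 1.39 and 1.28 times the product, but 1.02 and 1.04 times within the Gzmk-led cluster. Havcr2 helped form the CD8 clusters, while the shares given here for the whole class do not depend on that division.

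Per cell, naive-like cells held a mean of 3.87 (PBS) and 3.89 (AKK) of the 5 stem-like factors (Tcf7, Lef1, Satb1, Bach2, Id3) and 0.712 and 0.745 of the 4 effector factors (Id2, Tbx21, Eomes, Prdm1). The naive-like means include the Klra7-led cluster, where Tbx21 and Eomes were found in more cells than in the Dapl1-led cluster. NK-like cells held 2.82 and 2.93 stem-like and 2.43 and 2.55 effector factors. Regulatory T-like cells held the fewest stem-like factors, 1.42 in both libraries. These means count UMIs of Satb1, Id2 and Prdm1, which neutrophil-like cells also held in the shares given above, and the part of free RNA in them was not tested.

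Genes of the same programs were read from 4 lists, chosen with earlier results of these data known. Of the 14 stem-like and naive genes, 4 of 14 measured were called higher and 1 lower in AKK CD8 T-like cells, against 6.31% and 7.44% of all genes. Of the 4 higher, 3 had an interval that excludes 1. S1pr1, which lets T cells leave tissue, had a ratio of 1.93, and Ccr7, the chemokine receptor of naive cells, 0.433. Dapl1 had a ratio of 11.3 (2.93 to 96.4) from 2 PBS UMIs. In CD4 T-like cells 0 of 13 were higher and 6 lower, against 14% and 10.3% of all genes, and 4 of the 6 had an interval that excludes 1, among them Klf2 (0.535), which keeps T cells quiescent, and Ccr7 (0.595). The median log2 ratio of the list was -0.51 in CD4 T-like cells, beside 0.04 over all genes, and 0.11 in CD8 T-like cells, beside 0.01, and the difference between the classes was not tested. Ccr7 was lower in both. The CD4 T-like class took in 127 PBS and 182 AKK cells with doublets kept, against 50 and 134. In the other classes the counts higher and lower were 2 and 0 of 10 in ILC1-like, 1 and 0 of 11 in NK-like, 2 and 0 of 14 in naive-like and 1 and 2 of 12 in regulatory T-like cells. Over all genes, 8.49%, 8.95%, 13.1% and 10.3% were called higher in these 4 classes and 7.06%, 9.06%, 8.02% and 9.54% lower, so single calls in a list lie near the background. Myb, a factor of stem-like T cells, had ratios of 2.48 in ILC1-like and 2.00 in naive-like cells, and S1pr1 had 7.66 in ILC1-like cells. Il7r, the interleukin-7 receptor, had a ratio of 0.407 in regulatory T-like cells.

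Of the 15 effector genes, 5 of 12 measured were called higher in ILC1-like cells, against 8.49% of all genes, and 0 lower, with a median log2 ratio of 0.46 beside 0.05 over all genes. Ccl4, a chemokine, had a ratio of 3.15 there and Gzmb, a granzyme, 1.95. In NK-like cells 4 of 13 were higher, against 8.95% of all genes, among them Fasl (1.97), the ligand of the death receptor FAS, Prf1 (1.72), the pore-forming perforin, and Klrg1 (1.72), a marker of terminal effectors. Runx3, a factor of cytotoxic cells, was the 1 lower gene there with 0.650. In CD8 T-like cells 3 of 15 were higher, against 6.31%, among them Klrg1 (3.09) and Ccl4 (1.94), and 0 lower. In CD4 T-like cells 5 of 12 were higher, against 14%, and 4 of the 5 had an interval that excludes 1, with Gzma at 10.3 (2.72 to 87.2) from 2 PBS UMIs and Zeb2, a repressor that acts with T-bet, at 4.33, and Ccl4 was lower at 0.580. In naive-like cells 2 of 11 were higher, near the 13.1% of all genes, and 0 lower. In regulatory T-like cells 4 of 10 were higher, against 10.3%, led by Cxcr6 (5.11), and 1 lower.

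Many counts of the exhaustion and partner lists lay near the shares of all genes given above, 6.31% to 14% higher and 7.06% to 10.3% lower. Of the 14 exhaustion genes, 0 of 14 were called higher and 1 lower in CD8 T-like cells, Tox2, a relative of Tox, at 0.551. In NK-like cells 1 of 11 was higher and 2 lower, the checkpoint receptors Ctla4 (0.443) and Lag3 (0.499). Lag3 was higher in regulatory T-like cells at 3.29, where 1 of 13 was higher and Tox2 lower at 0.244. In ILC1-like cells 2 of 11 were higher, with Pdcd1, which encodes PD-1, at 3.19. The counts were 2 of 9 higher in CD4 T-like and 1 of 8 in naive-like cells, with 0 lower in both. Of the 22 partners and related factors, 4 of 16 were higher (14% of all genes) and 1 lower in CD4 T-like, 0 and 1 of 19 in CD8 T-like, 1 and 0 of 18 in ILC1-like and 2 and 2 of 18 in NK-like cells. In naive-like cells 4 of 17 were higher (13.1% of all genes) and 0 lower, and in regulatory T-like cells 2 of 16 higher and 1 lower. Bcl11b, a T cell commitment factor, had a ratio of 2.27 in NK-like cells, and Tcf4, an E protein gene, 3.08 in naive-like cells. Zbtb16, which encodes PLZF, had a ratio of 0.0388 (0.00756 to 0.125) in CD4 T-like cells, where all 29 PBS UMIs were in 1 cell, and 14.9 (2.55 to 603) in naive-like cells from 1 PBS UMI. Of the 46 AKK UMIs there, 20 and 14 were in single cells, and 44 lay in the Klra7-led cluster.

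Across 16 class and library profiles, the gene most like each factor was found by Pearson correlation of log2(CPM + 10) among 6995 genes. The profiles share libraries and depth, and 2 profiles of 1 class are not independent, so these values are descriptions. Tgfbr2, a receptor of TGF-beta, was most like Tcf7 (0.910), Ctse most like Lef1 (0.941) and Klra1, a Ly49 receptor gene, most like Satb1 (0.848). Cr1l was most like Bach2 (0.902), Serpinb6a most like Tox (0.944), Bhlhe40, a transcriptional repressor, most like Id2 (0.914) and Samd8 most like Id3 (0.888). Sos2 was most like Tbx21 (0.944), Klra3, another Ly49 receptor gene, most like Eomes (0.921) and Mxi1 most like Prdm1 (0.882). The next in order were Arid5a and Grk6 for Tcf7, Stk38 and Arhgap15 for Lef1, Ppp1r15a and Tspan9 for Satb1, Map4k4 and Bcl2 for Bach2 and Acot9 and Arl14ep for Tox. They were Camk2n1 and Il18rap for Id2, Klf11 and Fgfr1 for Id3, Ankrd13a and Serpinb9 for Tbx21, Prim2 and Scimp for Eomes and Ncoa7 and S100a10 for Prdm1. Among the factors themselves, Tcf7 was most like Bach2 (0.839) and Tox most like Prdm1 (0.754). Bach2 and Prdm1 ran opposite to each other (-0.774), as did Lef1 and Id2 (-0.772), while Tbx21 and Eomes reached 0.551 and Tcf7 and Lef1 0.616.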

How the data were processed

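Single-cell 3′ RNA libraries (10x Genomics v3) of 1 PBS and 1 AKK sample were analysed. The values are counts of UMIs per gene and barcode, deposited by the authors without normalization. Per the file headers the tool was Cell Ranger 7.1.0. Version 5.0.1 and build mm10 stand in the submitters' processing notes. Of 32285 gene IDs, 32158 (99.6%) were found in GENCODE M21.

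Cells with at least 200 genes and under 15% mitochondrial UMIs were kept. Doublet scores removed 207 PBS and 350 AKK barcodes, at 0.8% per 1000 barcodes. Clustering used scanpy 1.11.5 with leidenalg 0.10.2 and gave 32 clusters of all cells and 14 of lymphocytes at resolution 1.0. The first clustering included the 10 factors and the second left them out, with T cell receptor, mitochondrial and ribosomal genes. A cluster was named from a marker score of at least 1.0 with 3 or more markers each found in 20% of its cells, and clusters whose CD4 and CD8 scores lay within 0.5 were called mixed. This naming rule was chosen after the clusters were seen. The factors and lists were chosen with earlier results of these data known.

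With 1 library per group no test between groups was possible. Intervals are at 95%: exact Poisson for CPM, conditional binomial for ratios, and Newcombe for differences between shares, all computed with scipy 1.17.1. A class was compared with at least 50 cells in each library. Shares of cells are expectations over all draws of 4260 UMIs per cell, with Clopper-Pearson intervals at the expected count. This was chosen after seeing that 1 random draw moved the co-detection values. List genes are named where called with an interval that excludes 1, at most 5 higher and 5 lower per class, and 1 such gene is not reported here. For each factor the 3 most alike genes among those with at least 30 CPM in 1 profile are named. The ratio calculation was tested on simulated data.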

Additional observations from a re-analysis of the deposited data

How the results depend on the processing

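No paired analysis was possible because each group is 1 library. Over 8 alternatives (doublets kept, at least 1000 UMIs per cell, classes from marker gates, the 10 factors kept in the clustering, resolution 2.0, each cell weighted alike, size factor scaling, no UMI floor), 7 to 11 combinations were called higher and 2 to 4 lower, against 8 and 3. The direction of a called value reversed in 2 cases, both with marker gates: Prdm1 in naive-like cells, with a log2 ratio of 0.119 against -1.01, and Bach2 in CD4 T-like cells, with 0.00555 against -0.77. The cause was not tested. Marker gates drew other cells into the classes, with 103 PBS and 237 AKK naive-like cells against 53 and 174. Under them 25 log2 ratios moved, 2 reversed and 28 stayed the same. Of the CPM levels, 62 moved and 58 stayed the same. Each cell weighted alike and doublets kept each moved 10 log2 ratios and left 46 the same. Without the Gzmc-led cluster, 6 NK-like log2 ratios moved and 3 stayed the same. Leaving out the highest cell of each library, the Klra7-led or the Gzmc-led cluster, and 1 random draw of the thinned UMIs were added after seeing the data. Between 1000 UMIs, no thinning, 1 random draw and the class alternatives, the AKK minus PBS difference in Tcf7 co-detection ranged from 1.66 to 14.1 points in CD8 T-like and from 3.73 to 8.64 points in NK-like cells. No replicate could be left out. Depth limits Id3 and Eomes most: in T-like classes other than CD8 and naive-like they rest on fewer than 30 UMIs over both libraries.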
